A study of Mus musculus with 8 samples.

Results

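The carbonic anhydrases are a family of zinc enzymes, and 9 of their mouse genes (Car1, Car2, Car3, Car4, Car7, Car8, Car9, Car12 and Car13) were followed in RNA sorted from mouse colon 2 days after bone marrow transplantation. The 9 genes were taken by name, not by a threshold on their values, from 22180 measured genes. All recipients were female C57BL/6 mice treated for 5 days with busulfan and cyclophosphamide and then given bone marrow and T cells. Donors were LP/J mice in the allogeneic group (n = 4), in which donor T cells can attack the host and cause graft-versus-host disease, and C57BL/6 mice in the syngeneic group (n = 4), in which donor and host share a genome. There was no group without transplantation. The design text counts 4 mice in each group. One sample of cells was hybridised per array, sorted as positive for CD31 and negative for CD45 and CD11b. The age of the mice was not stated.

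Carbonic anhydrases speed the exchange of carbon dioxide and water for bicarbonate and a proton. In the colon, cytosolic members supply bicarbonate and protons to the transporters of surface colonocytes, which absorb sodium and chloride in exchange for them, and membrane-bound members act on the outer face of the cell. The family is not restricted to epithelium: Car4 is also a marker of capillary endothelium in some organs, Car1 and Car2 are abundant in red cells, and Car3 is a protein of muscle and fat.

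The values are log2 signals of one probe set per gene after RMA, a normalization that makes the arrays comparable, and they ran from 1.39 to 13.9 over the table. Signals of different genes depend on their probes, so levels are compared between arrays and not between genes. The sorted samples carried endothelial and epithelial RNA. Pecam1, which encodes CD31, lay between 9.76 and 11.6 and Cdh5, the endothelial cadherin, between 9.20 and 11.4, while the epithelial genes Epcam (8.93 to 9.51) and Krt8 (11.6 to 12.0) were also well above the 3 measured Y-linked genes, which reached at most 3.18 in these female recipients. Ptprc and Itgam, which encode the excluded CD45 and CD11b, lay between 4.42 and 6.18. The balance differed among arrays: the mean of 23 endothelial genes was highest on syngeneic arrays 3 (8.85) and 4 (9.74), against 7.53 to 8.21 on the other 6 arrays, and the mean of 20 epithelial genes was lowest on the same 2 arrays (9.47 and 9.15, against 9.65 to 9.73). The lists also moved with the donor group. All 23 endothelial genes had a negative log2 change (allogeneic minus syngeneic), with a median of -0.66 and list means of 7.90 ± 0.35 and 8.63 ± 0.86 (SD, n = 4 each), and 18 of 20 epithelial genes had a positive one, with a median of 0.19. No gene of either list passed limma's adjusted threshold of 0.05, and 7 of 23 and 4 of 20 were below an unadjusted p of 0.05, as were 13.2% of all genes. In such mixed samples fewer cells of a type and less RNA per cell cannot be told apart, and no value here can be assigned to endothelial cells alone. Lists for crypt, goblet, enteroendocrine and tuft, smooth muscle and fibroblast, and neuron and glia genes had 0 genes called by limma after adjustment. At an unadjusted p below 0.05 they had, in that order, 3 of 11, 4 of 12, 3 of 12, 5 of 14 and 0 of 10 genes, against the same 13.2%. Of 17 measured leukocyte genes S100a8 fell (log2 change -1.94, limma adjusted p = 0.00424), where 0.113% of all genes were called lower. At an unadjusted limma p below 0.05 the leukocyte list had 3 of 17 genes, against the same 13.2%. Beside S100a8 these were S100a9 (-0.83) and Ly6g (-1.17), which did not pass (limma adjusted p = 0.059 and 0.222). The groups did not overlap for these 3 genes, against 8.55% of all genes. Over the list 8 log2 changes were positive and 9 negative. The S100a8 signal was low, with 2.59 to 3.41 on allogeneic arrays, at or slightly above the Y-linked genes.

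Of the 9 genes, Car2 rose in the allogeneic group and the other 8 did not pass the test in either direction. The test was limma's linear model over all 22180 genes with Benjamini-Hochberg adjustment and a threshold of 0.05, at which 0.469% of all genes were called, 0.356% as higher and 0.113% as lower. At an unadjusted limma p below 0.05, Car2, Car4 and Car8 were higher and none of the 9 was lower, where 7.81% of all genes were higher and 5.43% lower. The log2 change (allogeneic minus syngeneic) was positive in 8 of the 9 genes, with a median of 0.32, against 49% positive and 51% negative changes and a median of -0.01 over all genes. The 4 allogeneic arrays lay wholly on one side of the 4 syngeneic arrays for Car2 alone among the 9, a separation seen in 8.55% of all genes (5.18% with higher and 3.36% with lower allogeneic values).

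**Figure D1:**
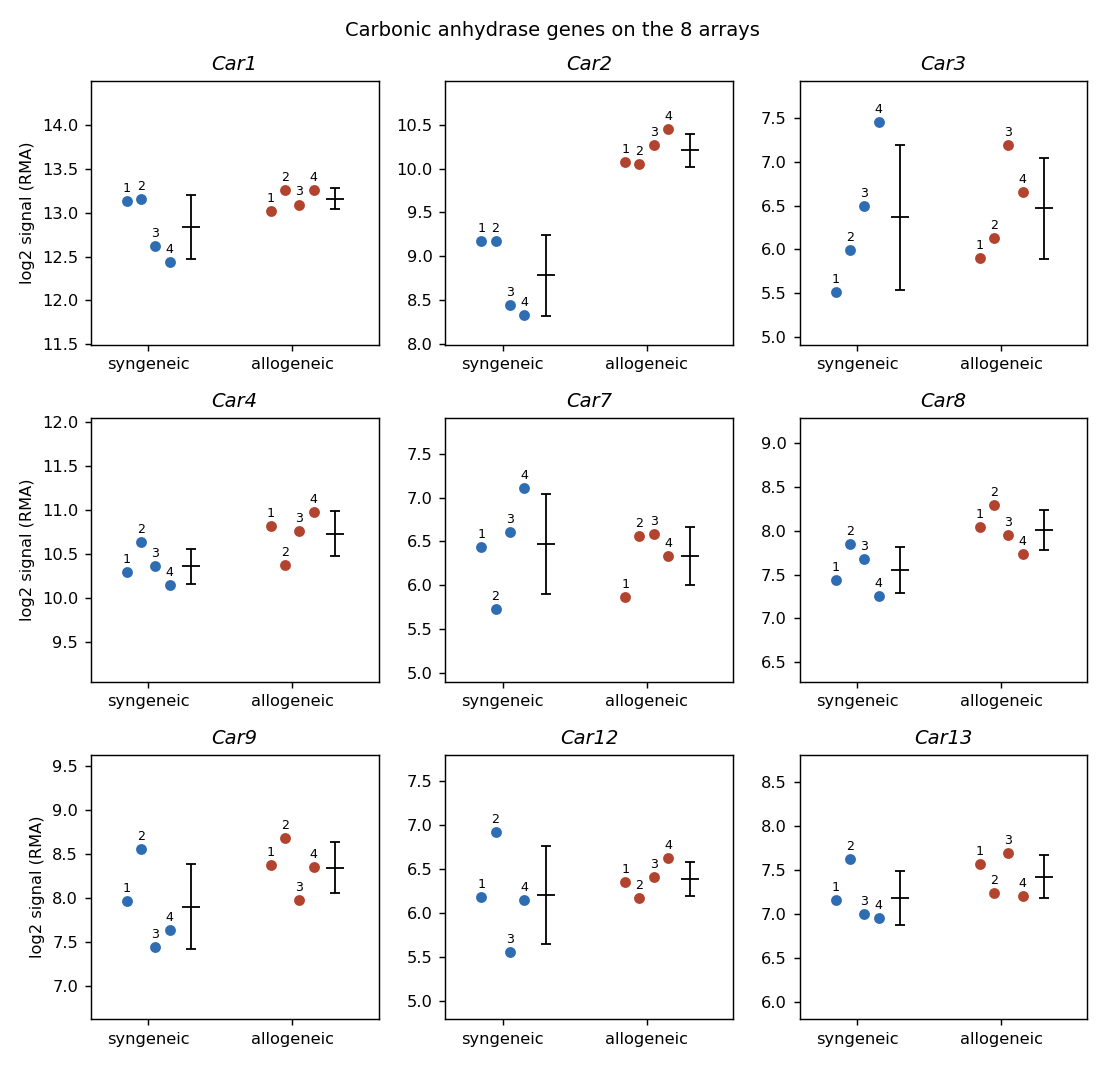
Log2 signal of each of the 9 carbonic anhydrase genes (one panel per gene, each vertical axis spanning the same log2 range around the gene's mean) on the 4 syngeneic (blue) and 4 allogeneic (red) arrays, with replicate numbers; black bars are the group mean ± SD. The groups are apart for Car2, with 8.33 to 9.18 in syngeneic and 10.05 to 10.45 in allogeneic arrays, and overlap in the other 8 panels.

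Car2 encodes the fast cytosolic isozyme found in colonocytes and many other cells. Its log2 signal was 10.07, 10.05, 10.27 and 10.45 on allogeneic arrays 1 to 4 and 9.18, 9.17, 8.45 and 8.33 on syngeneic arrays 1 to 4. All allogeneic values exceeded all syngeneic ones, and within the syngeneic group arrays 3 and 4 were the low pair. The group means were 10.21 ± 0.19 and 8.78 ± 0.46 (SD, n = 4 each), a rise of 2.69-fold (log2 change 1.42 ± 0.20 SE, 95% interval 0.97 to 1.88, limma adjusted p = 0.0238). Among the 79 genes called higher it was the 26th by size and the 18th by p.

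The Car2 rise was also computed without single arrays and with marker list means as covariates. Without syngeneic arrays 3 and 4 it was smaller and still called (log2 change 1.03, limma adjusted p = 0.024). When single arrays were left out in turn, the call was lost 5 of 8 times, without allogeneic arrays 1, 2, 3 and 4 (limma adjusted p = 0.0825, 0.0727, 0.0534 and 0.0745) and without syngeneic array 3 (0.0771), while the log2 change stayed between 1.27 and 1.56 over all 8. With each array's mean over the 20 epithelial genes as a covariate it was 1.06 (limma adjusted p = 0.0606), and with the 23 endothelial genes in that place 1.16 (limma adjusted p = 0.0484). A list of 18 genes of differentiated colonocytes, 15 of them measured, had array means of 9.41 to 9.84 in the allogeneic and 8.56 to 9.27 in the syngeneic group, without overlap. Of this list 14 genes had a positive log2 change, against 49% of all genes, with a median of 0.40. At an unadjusted limma p below 0.05 were 7 of 15, against 13.2% of all genes. The brush border protease gene Mep1a rose (1.81, limma adjusted p = 0.038), where 0.356% of all genes were called higher. With this list as a covariate, a setting added after the files were seen, the log2 change of Car2 was 0.72 (limma adjusted p = 0.792), and limma called 0 genes as higher and 0 as lower in that fit, in which 691 genes were higher and 554 lower at an unadjusted p below 0.05. Because the list means separate the groups, the covariate takes up part of any group difference, and the colonocyte signal and the donor group cannot be told apart in this fit.

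**Figure D2:**
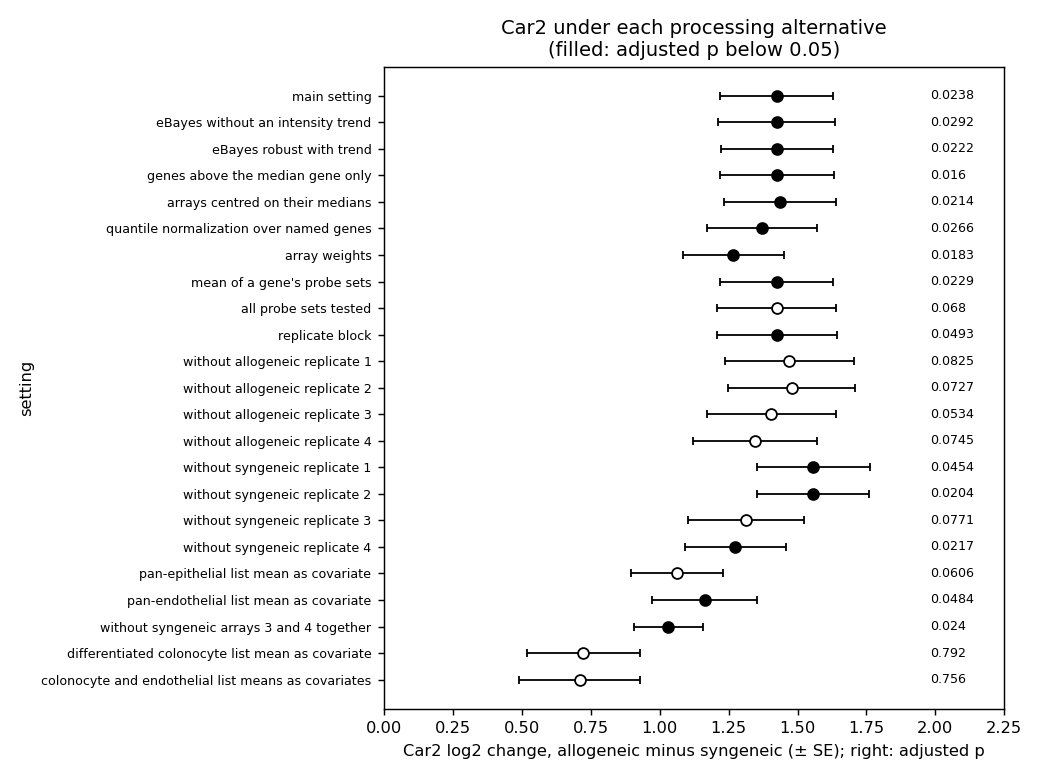
Log2 change of Car2 (allogeneic minus syngeneic, horizontal axis, ± SE) under the main setting and 22 alternatives, one per line, with limma's adjusted p at the right; filled points passed 0.05. The change is positive in every line, between 0.71 and 1.56, and 13 of the 22 alternatives kept the call.

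Car1, the other major cytosolic isozyme of colonocytes, had a log2 signal of 13.02, 13.26, 13.09 and 13.26 on allogeneic and of 13.13, 13.15, 12.62 and 12.44 on syngeneic arrays 1 to 4. Syngeneic arrays 1 and 2 lay within the allogeneic range and arrays 3 and 4 below it. The log2 change was 0.32 ± 0.15 (SE, 95% interval -0.01 to 0.65, limma adjusted p = 0.39), and 0.02 without syngeneic arrays 3 and 4. Red cell genes, 5 of 13 measured, had array means of 4.32 to 4.77, and none passed. The Car1 signal was near the top of the measured range, and whether it was compressed there was not tested.

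Car13, a further cytosolic isozyme, also overlapped between the groups. Its log2 signal was 7.56, 7.24, 7.70 and 7.20 on allogeneic and 7.16, 7.62, 7.00 and 6.95 on syngeneic arrays 1 to 4, a log2 change of 0.24 ± 0.18 (SE, 95% interval -0.17 to 0.65, limma adjusted p = 0.632). Again syngeneic arrays 3 and 4 were the lowest pair of the 8.

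The remaining cytosolic genes, Car3 and Car7, did not share the low values on syngeneic arrays 3 and 4. Car3, a slow isozyme of muscle and fat, read 5.90, 6.13, 7.18 and 6.66 on allogeneic and 5.52, 6.00, 6.50 and 7.45 on syngeneic arrays 1 to 4. Car7, known from brain and also found in colon, read 5.86, 6.56, 6.58 and 6.34 on allogeneic and 6.44, 5.74, 6.60 and 7.11 on syngeneic arrays. Both were highest on syngeneic array 4, where the endothelial mean was highest and where Car1, Car2, Car4, Car8 and Car13 were each at their lowest of the 8 arrays. The log2 changes were 0.10 ± 0.39 for Car3 and -0.14 ± 0.27 for Car7 (SE, limma adjusted p = 0.945 and 0.88), with 95% intervals from -0.77 to 0.98 and from -0.74 to 0.46. With the endothelial mean as a covariate they were 0.81 and 0.30 (limma adjusted p = 0.241 and 0.699). Adipocyte and skeletal muscle genes, 12 of them measured, had array means between 5.22 and 5.60, highest on syngeneic array 4, and none passed. Their part in the Car3 values was not tested. A second Car3 probe set read between 3.00 and 3.17 on 7 arrays, in the range of the Y-linked genes, and 4.53 on syngeneic array 4.

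**Figure D3:**
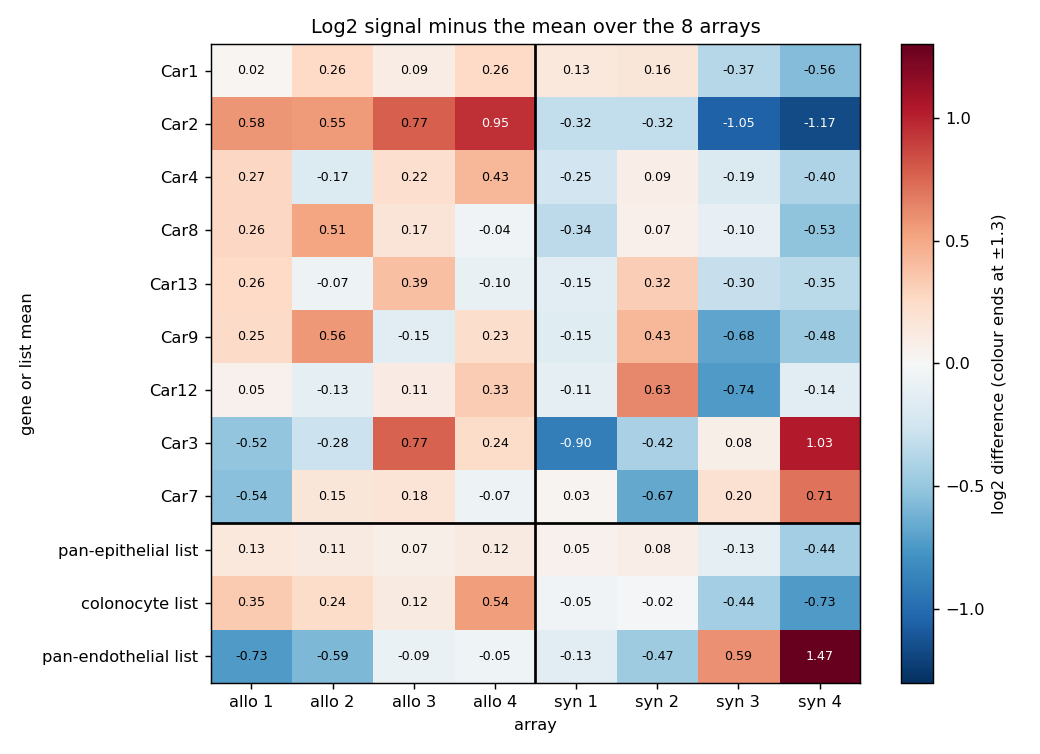
Log2 signal of the 9 genes (rows above the line) and means of 3 marker lists (rows below it) on the 8 arrays (columns), each minus its mean over the 8 arrays; red is higher and blue lower, with the value in each cell and colours ending at ±1.3. Car2 is positive on all allogeneic arrays (0.55 to 0.95) and negative on all syngeneic ones (-1.17 to -0.32). Car3 and Car7 are highest on syngeneic array 4 (1.03 and 0.71), as is the endothelial list (1.47). Lists not drawn also had their highest mean there, among them enteroendocrine and tuft genes (6.78) and adipocyte and muscle genes (5.60).

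Car4, Car9 and Car12 are the membrane-bound members. Car4 is held at the outer face by a lipid anchor, on colonocyte brush borders and on some capillaries. Its log2 signal was 10.81, 10.37, 10.77 and 10.98 on allogeneic and 10.30, 10.63, 10.36 and 10.14 on syngeneic arrays 1 to 4. Allogeneic array 2 and syngeneic array 2 made the groups overlap, and the log2 change of 0.37 ± 0.14 (SE, 95% interval 0.06 to 0.69) did not pass over all genes (limma adjusted p = 0.288). Car4 was lowest on syngeneic array 4, where the endothelial mean was highest. Which cells gave the Car4 signal was not tested.

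Car9 and Car12 encode transmembrane enzymes of epithelia and tumours, and Car9 is a classic target of the hypoxia-inducible factors (HIF), which bind the core sequence ACGTG or GCGTG. Their RefSeq promoters, the 250 bases before the start in build GRCm38.p6, are shown because only one of the pair holds such a core. Both are written 5′ to 3′ on the plus strand, Car9 from chr4:43506776-43507025 and Car12 from chr9:66713436-66713685, and capitals mark a core on either strand.
Car9: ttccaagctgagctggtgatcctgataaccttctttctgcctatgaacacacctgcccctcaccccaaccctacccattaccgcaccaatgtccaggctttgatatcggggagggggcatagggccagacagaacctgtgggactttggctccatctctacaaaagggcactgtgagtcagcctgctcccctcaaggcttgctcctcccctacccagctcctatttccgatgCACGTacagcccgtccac
Car12: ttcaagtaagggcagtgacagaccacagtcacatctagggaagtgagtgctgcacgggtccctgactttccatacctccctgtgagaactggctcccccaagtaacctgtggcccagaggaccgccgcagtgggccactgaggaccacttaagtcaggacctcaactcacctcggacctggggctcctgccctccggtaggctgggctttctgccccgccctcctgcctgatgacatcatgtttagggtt
Car9 has 1 core, ACGTG on the minus strand, beginning 18 bases before the start, and Car12 has none in this window. Of all 32851 promoter windows in the table, 38.6% hold at least 1 of the 2 cores on either strand and 16.6% hold ACGTG. Promoters of Car4 and Car7 were also available. The Car4 window holds no core. Of the Car7 windows, 1 holds 2 GCGTG cores and another holds 1. No promoter of Car1, Car2, Car3, Car8 or Car13 was available here. A match is a description of the letters and not of binding.

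Car9 read 8.37, 8.68, 7.97 and 8.35 on allogeneic and 7.97, 8.55, 7.44 and 7.64 on syngeneic arrays 1 to 4, so that the groups overlapped through syngeneic array 2. Its log2 change was 0.45 ± 0.24 (SE, 95% interval -0.08 to 0.97, limma adjusted p = 0.458). A second Car9 probe set read 7.88, 8.16, 7.29 and 7.57 on allogeneic and 8.09, 7.96, 7.90 and 6.88 on syngeneic arrays, with a group difference of 0.02 ± 0.29 (SE, log2 scale; limma adjusted p = 0.992 over all probe sets). The 2 sets thus differ in their order of the syngeneic arrays, with array 3 lowest in one and array 4 in the other. Other genes of the hypoxia response had the opposite sign. Of 16 measured members, Car9 and Car12 not among them, 14 had a negative log2 change, with a median of -0.28. None passed, and 5 of 16 were below an unadjusted limma p of 0.05, against 13.2% of all genes. Vegfa, the endothelial growth factor, was at -0.44 ± 0.12, and Hif1a, a HIF subunit, at -0.51 ± 0.15 (SE, limma adjusted p = 0.142 and 0.168). For these 2 of the 16 genes the groups did not overlap, against 8.55% of all genes. Car12 read 6.35, 6.17, 6.40 and 6.62 on allogeneic and 6.18, 6.92, 5.55 and 6.15 on syngeneic arrays, where arrays 2 and 3 were the highest and lowest of all 8. Its log2 change was 0.18 ± 0.25 (SE, 95% interval -0.37 to 0.74, limma adjusted p = 0.811).

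Car8 differs from the rest in that its protein lacks the zinc site and enzyme activity and is known to bind an inositol trisphosphate receptor. It read 8.04, 8.29, 7.95 and 7.74 on allogeneic and 7.44, 7.85, 7.68 and 7.25 on syngeneic arrays 1 to 4. The 3 highest of the 8 values were allogeneic, and allogeneic array 4 lay below syngeneic array 2. The log2 change of 0.45 ± 0.17 (SE, 95% interval 0.08 to 0.83) did not pass (limma adjusted p = 0.282).

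Whether Car2 changed more than the other members was read from the difference of 2 genes within each array, which cancels what both share. All 36 pairs were compared by a two-sided exact permutation test over the arrays. The groups were apart in 7 pairs, each of which held Car2; Car3 was the one partner of Car2 with overlap. The log2 difference of Car1 over Car2 was 2.81 to 3.21 on allogeneic and 3.95 to 4.17 on syngeneic arrays, a shift of 1.10. Against Car4, the log2 difference of Car2 was -0.74 to -0.32 on allogeneic and -1.91 to -1.11 on syngeneic arrays, a shift of 1.05. Each of the 7 pairs reached the lowest p that 4 arrays a group allow (exact permutation p = 0.0286). After Benjamini-Hochberg adjustment over the 36 pairs this p became 0.147, and none passed. Only 8 pairs hold Car2, too few for this lowest p to pass the adjustment. A change of Car2 alone could therefore not pass, and the adjusted test cannot answer whether Car2 changed more. Because Car2 was the only member with groups apart, separated pairs that hold it follow partly from its own values. Car1, Car4, Car8, Car9, Car12 and Car13 differed among each other in their change by at most 0.27 on the log2 scale, with the groups overlapping in each pair.

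**Figure D4:**
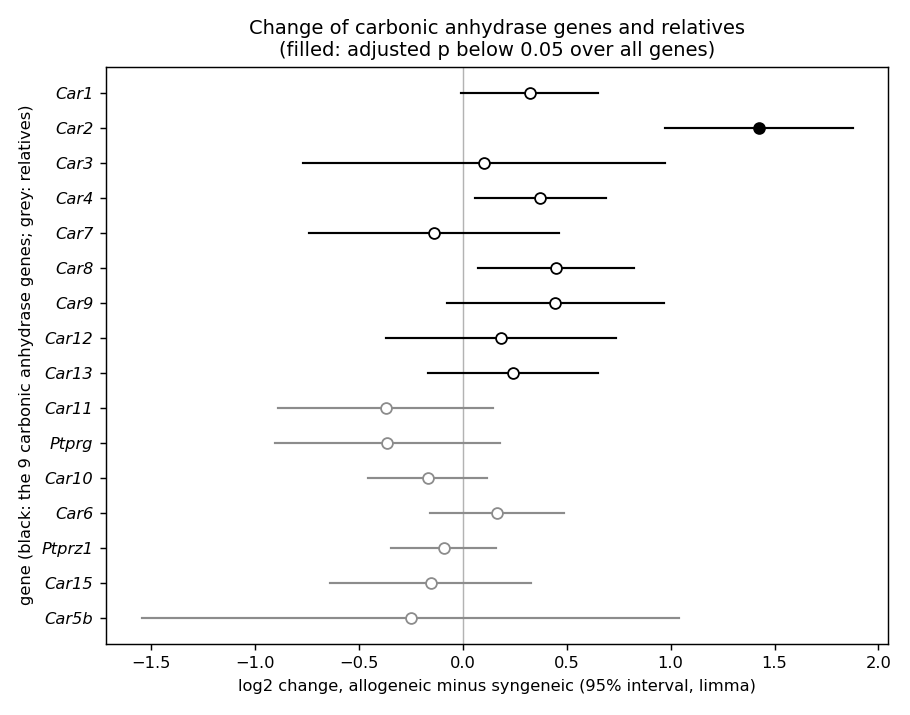
Log2 change (allogeneic minus syngeneic, horizontal axis) with 95% limma intervals for the 9 carbonic anhydrase genes (black) and 7 relatives (grey); filled points passed an adjusted p of 0.05. Car2 (1.42) is the one filled point, and the interval of each relative includes 0.

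4 of the genes are neighbours. Car13, Car1, Car3 and Car2 lie in that order on chromosome 3, with no other protein-coding gene between them in the RefSeq annotation of GRCm38.p6. Within this cluster Car2 rose, while its next neighbour Car3 (0.10) and then Car1 (0.32) and Car13 (0.24) did not pass.

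Relatives outside the 9 genes did not pass either. Of 9 further genes with a carbonic anhydrase domain, 7 had a probe set of their own, 6 of them with a negative log2 change. Car11 (-0.37 ± 0.23) and Car10 (-0.17 ± 0.13) encode relatives without enzyme activity. Ptprg (-0.36 ± 0.24) and Ptprz1 (-0.09 ± 0.11) are receptor phosphatases with a carbonic anhydrase-like domain. Car5b, the mitochondrial isozyme, had the widest spread, from 5.12 to 8.29 among allogeneic arrays (-0.25 ± 0.59), and the secreted isozyme gene Car6 (0.16 ± 0.15) and Car15 (-0.15 ± 0.22) completed the list (SE, limma adjusted p between 0.544 and 0.902). Car6 and Ptprz1 read only 2.80 to 3.60, at or slightly above the Y-linked genes.

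Transporters of bicarbonate, protons and their partners, which work with these enzymes, were given as a list of 28 genes, of which 26 were measured. One rose and none fell: Slc9a2, a sodium-proton exchanger, read 8.53 ± 0.20 in the allogeneic and 7.30 ± 0.49 in the syngeneic group (SD, n = 4 each). Its difference was 1.23 ± 0.23 on the log2 scale (SE, limma adjusted p = 0.0493), against 0.356% of all genes called higher. The Slc9a2 call lay close to the threshold of 0.05 and was not followed through the alternatives. Cftr, the chloride and bicarbonate channel (1.63 ± 0.33), and Slc26a2, a sulfate transporter (0.75 ± 0.17), had larger values in all allogeneic than in any syngeneic array but did not pass (SE, limma adjusted p = 0.0616 and 0.0962). The anion exchanger gene Slc26a6 had lower values in all allogeneic arrays (-0.70 ± 0.15 SE, limma adjusted p = 0.0741). Slc16a1, Slc5a8, Ano1, Slc4a4 and Slc4a2 also had higher values in all allogeneic arrays, with log2 changes of 0.44 to 1.41, and did not pass (limma adjusted p between 0.127 and 0.255). In all, the groups did not overlap for 9 of the 26 genes, against 8.55% of all genes, and 11 of 26 were below an unadjusted limma p of 0.05, against 13.2%. Over the 26 genes 16 log2 changes were positive, and the median was 0.20. The colonocyte and epithelial list means given above were also higher in the allogeneic group, and their part in these values was not tested.

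The array pattern of each gene was compared with others by the root mean square difference of the 8 log2 values, each gene centred on its mean. Predicted genes and genes with clone-type names were left out of this comparison. Closest to Car2, whose own deviation was 0.77 by that measure, were Dpep1, a membrane dipeptidase (0.12), Cth, the cystathionine gamma-lyase (0.14), and Hpgd, which inactivates prostaglandins (0.15). These 3 genes rose by 1.55, 1.33 and 1.26 on the log2 scale (limma adjusted p = 0.00979, 0.0435 and 0.038). Since they were picked for matching the array values of Car2, a rise of like size follows from the choice and is no separate evidence. Closest to Car1, with an own deviation of 0.28, were Galnt4 (0.07), Tecr (0.08) and Lurap1l (0.08). Closest to Car4 (own deviation 0.27) was Syt3 (0.07), to Car8 (0.31) Ddx59 (0.08), to Car13 (0.27) Ctsc (0.08), to Car9 (0.41) Pnp2 (0.10) and to Car12 (0.37) Grin3a (0.10). Car7 (0.41) was closest to Cdiptos (0.11), while Car3 (0.62) had no near match, with Tpbgl at 0.25. The likeness is a description over 8 arrays.

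The 9 genes varied more among syngeneic than among allogeneic arrays, with a larger SD in the syngeneic group for 8 of them, all but Car4. Over all genes the syngeneic SD was the larger in 60.1%. Syngeneic arrays 3 and 4 were together the lowest pair of the 8 arrays for 5 of the 9 genes (Car1, Car2, Car9, Car12 and Car13), and array 4 was in the lowest pair for 7.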

How the data were processed

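RNA of sorted colon cells from 8 mice was measured on Affymetrix Mouse Gene 2.0 arrays, with targets made from 700 pg of total RNA per the labels' protocols. The authors deposited log2 values, and the submitters' processing notes name RMA and, as software, Affymetrix Expression Console 1.4.1. Beyond the name RMA, how probes were summarised was not stated. Scanner files were not used here, which leaves low signals without a detection call. Of 41345 probe sets, 23521 carried a single gene symbol in the platform annotation, 1814 more than 1, and 16010 no symbol. Per gene the probe set with the highest mean was used, which left 22180 genes; Car3 and Car9 had 2 probe sets. All columns were used.

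Groups and replicate numbers came from the sample titles, and no batch or date was given. The main test was limma 3.58.1 in R 4.3.3 (lmFit, eBayes with an intensity trend, no filter), with Benjamini-Hochberg adjustment over all genes; the pipeline was tested on simulated data. The number of arrays limits the precision. The labels call the samples biological replicates. Changes are log2 differences, so no pseudocount was needed.

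The 9 genes, the gene lists and the alternatives were chosen with earlier results of these data known. The rule for named genes took all 9 genes, their measured relatives, up to 4 genes with the smallest p of each other list, 6 level checks, the Y-linked genes, the 3 nearest array patterns of each of the 9 genes above the median gene, and the largest rise and fall over all genes; those that bear on the 9 genes are printed. The settings with the colonocyte list as a covariate were added after the files were seen. Promoter sequences are from RefSeq, and 4 of the 9 genes had one.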

Additional observations from a re-analysis of the deposited data

Results flagged for a closer look

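In 54 groups of 4 arrays (the 11 probe sets of the 9 genes and the 16 list means, in each donor group), 5 had 1 array far from the other 3 by Dixon's criterion, which chance meets in about 1 of 20 groups. None of the 9 genes met it in the probe set used for the tests. The second Car3 probe set read 4.53 on syngeneic array 4, with the nearest other syngeneic value at 3.17. The second Car9 probe set read 6.88 on the same array, with the nearest at 7.90. The mean of the enteroendocrine and tuft cell genes was also highest there, at 6.78 against 6.03. The mean of the neuron and glia genes was highest on allogeneic array 4, at 4.90 against 4.61. The mean of the hypoxia genes was lowest on allogeneic array 2, at 7.62 against 7.93.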

How the results depend on the processing

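The log2 change of Car2 stayed positive in all 22 alternatives (0.71 to 1.56), and 13 kept its call; 1 member was called as higher in these, and 0 with all probe sets tested (limma adjusted p = 0.068), with the epithelial covariate, with either colonocyte covariate and at a threshold of 0.01. Leaving out 1 array gave 0 to 1. With 0 called, limma had 2 to 3 members higher at an unadjusted p below 0.05 in the covariate and all-probe-set fits. No alternative called a member as lower, at an unadjusted p either. Over all genes, 79 higher and 25 lower calls became 138 and 55 among genes above the median gene, 11 and 6 over all probe sets, 9 and 6 with the epithelial covariate, 26 and 12 without syngeneic arrays 3 and 4, 27 and 14 with the endothelial covariate, 203 and 102 at a threshold of 0.1, and 5 and 3 at 0.01. Both fell to 0 and 0 with the colonocyte covariate, alone (691 and 554 at an unadjusted p below 0.05) or with the endothelial one (724 and 584). Quantile normalization gave 46 higher calls, the replicate block 40 higher calls, and array weights 39 lower calls. Leaving out 1 array gave 4 to 145 higher and 4 to 35 lower calls. The cause of these shifts was not tested.

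Signs turned among genes that were never called. In the order epithelial covariate, endothelial covariate, without syngeneic arrays 3 and 4, colonocyte covariate, and colonocyte with endothelial covariate, Car7 was at 0.34, 0.30, 0.25, 0.68 and 0.48. Car12 was at -0.017, -0.16, -0.34 and -0.37 in these settings without the endothelial one. With the colonocyte covariate Car1 was at -0.22 and Car9 at -0.15, and with both covariates Car1 was at -0.17 and Car4 at -0.014. Car3, at 0.10 in the main setting, was at -0.11 with its probe sets averaged, and at 0.86, 0.81, 0.71, 1.35 and 0.98 in the 5 settings in the order given for Car7 (limma adjusted p between 0.241 and 0.833). Without 1 array Car3 ran from -0.18 to 0.47, Car7 from -0.38 to 0.075 and Car12 from -0.031 to 0.42. Car8 and Car13 kept their sign in all 22 alternatives. The median change of all genes lay between -0.01 and 0.01 under the scalings.

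Deviations of same-numbered arrays correlated between -0.10 and 0.10, and not every array matched its own number best, so the numbers were not taken as pairs. With the replicate block Car2 stayed called (limma adjusted p = 0.0493).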
